A study of Homo sapiens with 8 samples.

Results

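The response of wild-type Smad3 cells to TGF-β was measured in 4 of the 8 RNA-sequencing libraries of the series, those whose titles name wild-type Smad3 with or without TGF-β and a replicate number of 1 or 2. The cells were A549-S3KO cells, that is A549, an established human lung adenocarcinoma line, with its SMAD3 gene knocked out by a double nickase and wild-type Smad3 cDNA put back by lentivirus. Controls and treated cells both carried the knockout and the cDNA. The treated cells received TGF-β at 1 ng/ml during 8 h, starting as they were seeded on collagen. The study's methods do not state how long the controls were kept after seeding, so TGF-β may not be the only difference. The 4 other libraries come from cells given Smad3(RA/KP), a double mutant of the Smad3 MH1 domain, under the same conditions. Each group had n = 2. Infected cells were cloned by limiting dilution, and the study states that more than 1 clone was used in its experiments. For wild-type Smad3, clones with as much Smad3 as parental A549 cells make themselves were hard to obtain. The study therefore picked the clone with the lowest Smad3 expression of those compared, so the wild-type line as described is 1 clone. Whether the clone that was sequenced is that one is not stated in the sources used here. The study's supplement describes the replicates as independent experiments.

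TGF-β is a secreted cytokine that binds a pair of receptor kinases at the cell surface. The activated type I receptor phosphorylates Smad2 and Smad3, which join Smad4, enter the nucleus and bind DNA with other transcription factors. In epithelial cells such as A549 the pathway is known for epithelial-mesenchymal transition (EMT), for production of extracellular matrix, for motility and for growth arrest, and it induces its own inhibitors, among them Smad7.

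SMAD3 itself was listed at 158 and 187 TPM (the deposited unit, a gene's share of its library per unit of transcript length, scaled to sum to 1e+06) in the untreated libraries and at 137 and 166 TPM in the treated ones. These ranges overlap, and the difference of -0.19 ± 0.15 (SE) on the log2 scale was not called (adjusted p = 0.649). A level per gene does not separate the introduced cDNA from any transcript left by the edited gene. The libraries carried the marks of the A549 line in part. The keratin genes KRT7 (3991 and 4196 TPM untreated), KRT8 (5703 and 4579 TPM) and KRT18 (5177 and 2975 TPM) were abundant. The surfactant genes SFTPA1, SFTPB and SFTPC and the club cell gene SCGB1A1 were listed at 0 in each library. Of 18 markers of other cell types, PTPRC, PECAM1, VWF and DCN, which define leukocytes, endothelium and fibroblasts, were listed at 0, and the summed level of the list ran from 78.9 to 88.2 TPM untreated and from 71.4 to 114 TPM treated, most of it CD68. A value of 0 in these tables can be a failed estimate, so it is given below as listed at 0. Sequencing depth, inferred from the deposited coverage and FPKM values, was 1.15 and 1.42 Gb of mapped bases in the untreated libraries. In the treated ones it was 1.27 and 1.81 Gb.

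TGF-β changed 615 genes (4.68% of those tested) in wild-type Smad3 cells, and more rose than fell. Of 13141 genes tested on log2(TPM + 1) with limma, 387 (2.94%) were higher and 228 (1.74%) were lower at an adjusted p under 0.05. These shares are the background for every gene list below. The median level over the 4 libraries was 26.5 TPM for genes that rose, 11.9 TPM for those that fell and 12.9 TPM for all genes tested. These levels include the treated libraries, so the response itself raises the first median and lowers the second, and their order is only a description. Together the 387 genes held 1.65 and 1.92% of all TPM in the untreated libraries and 4.22 and 4.91% in the treated ones. The 228 genes held 1.19 and 1.05% untreated and 0.559 and 0.499% treated. Protein-coding genes made up 375 of the genes that rose and 203 of those that fell, and long noncoding RNAs 5 of each.

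Both replicates of the response were used in the test, so their likeness is a description of what was called. For each gene, the difference of treated minus untreated was taken within replicate 1 and within replicate 2. It had the same sign in both for 9067 tested genes (69.0%) and for each of the 615 called genes. Over all tested genes the differences of both replicates had a Pearson correlation of 0.559, across genes of the same 4 libraries. The median log2 fold change over all tested genes was -0.06. In 17.8% of tested genes both treated libraries were above both untreated ones, and in 27.9% both were below.

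**Figure D1:**
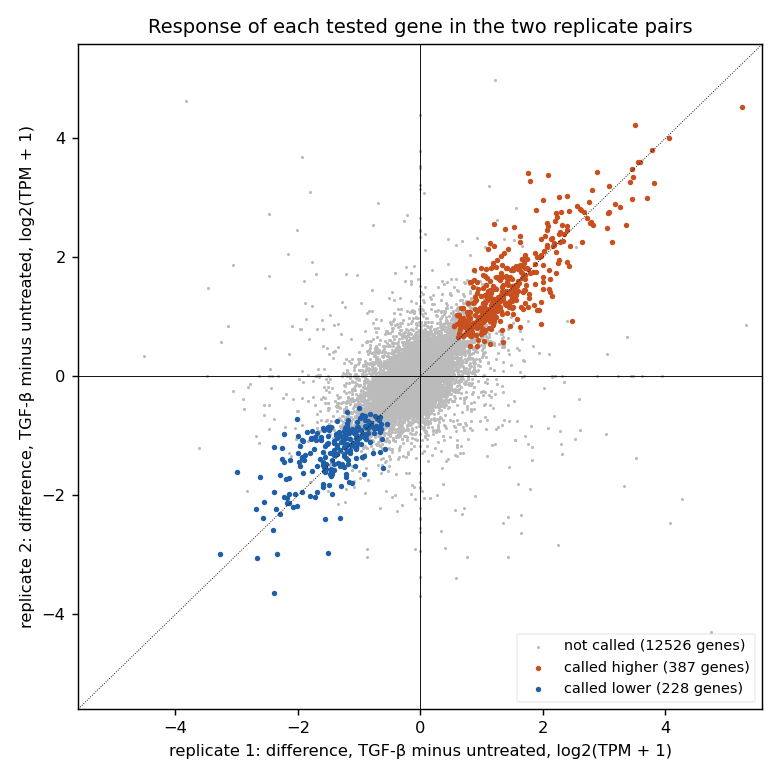
Each point is 1 of the 13141 tested genes, with the difference of TGF-β minus untreated in log2(TPM + 1) for replicate 1 on the x axis and for replicate 2 on the y axis. Orange points are the 387 genes called higher, blue points the 228 called lower and grey points those not called, and the dotted line marks equal differences. Called genes lie in the upper right and lower left corners, and many grey points lie off the line.

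The numbers of calls rested on the replicate block, a term for the replicate number shared by all 4 groups. Without this pairing 198 genes were higher and 79 lower. Leaving out 1 wild-type library left 172 higher and 57 lower without untreated replicate 1, 157 and 51 without untreated replicate 2, 91 and 15 without treated replicate 1 and 93 and 52 without treated replicate 2, with the lone library assumed to vary like the other groups. Leaving out an untreated Smad3(RA/KP) library, which shares the fit, gave 560 higher and 451 lower without replicate 1 and 561 and 447 without replicate 2. For genes named below, the text says which of the 4 wild-type libraries ended a call when left out. A call described as firm was kept in each of 19 other settings of the analysis, which included these fits and the fit without the block.

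The largest rises were in genes for secreted proteins, matrix and membrane proteins. ANGPTL4 (GRCh38 chr19:8364127-8374375), a secreted inhibitor of lipoprotein lipase, was at 18.5 and 31.2 TPM in the untreated libraries and at 745 and 741 TPM in the treated ones. IL11 (chr19:55364382-55370463), a cytokine of the IL6 family, went from 12.02 and 14.3 TPM untreated to 217 and 244 TPM treated. Treated libraries were more than an order of magnitude above untreated ones for both genes, and the treated replicates were close together. The log2 fold changes were 4.89 ± 0.20 for ANGPTL4 (adjusted p = 2.78e-05) and 4.04 ± 0.21 for IL11 (adjusted p = 8.07e-05).

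COL1A1 (chr17:50184096-50201642), the alpha 1 chain of type I collagen, was at 10.5 and 6.17 TPM untreated and 157 and 99.01 TPM treated. Claudin-4 (CLDN4), a tight junction protein, was at 4.27 and 2.18 TPM untreated and 62.6 and 37.6 TPM treated. For both genes the lower treated library stood far above the higher untreated one. Log2 fold changes were 3.79 ± 0.23 and 3.60 ± 0.20, with adjusted p-values of 9.40e-05 and 9.40e-05.

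TGFBI, a matrix protein named for its induction by TGF-β, was among the most abundant genes that rose, at 644 and 528 TPM untreated and 3002 and 3548 TPM treated. It made 9.68% of the TPM gained by the 387 genes.

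Other genes among the 15 largest rises had log2 fold changes from 2.97 to 3.58. They included SEMA7A, a membrane-anchored semaphorin, and WNT5B, a Wnt ligand. SPHK1, which makes sphingosine 1-phosphate, and the protocadherin PCDH1 were others. KDM6B, a histone H3 lysine 27 demethylase, ADAM19, a membrane metalloprotease, TNFAIP6, a hyaluronan-binding protein, and CGB8, a chorionic gonadotropin beta gene with near-identical copies, were also among them. SEMA7A was at 0.799 and 1.93 TPM untreated and 20.1 and 34.6 TPM treated, without overlap. All 15 calls were firm.

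**Figure D2:**
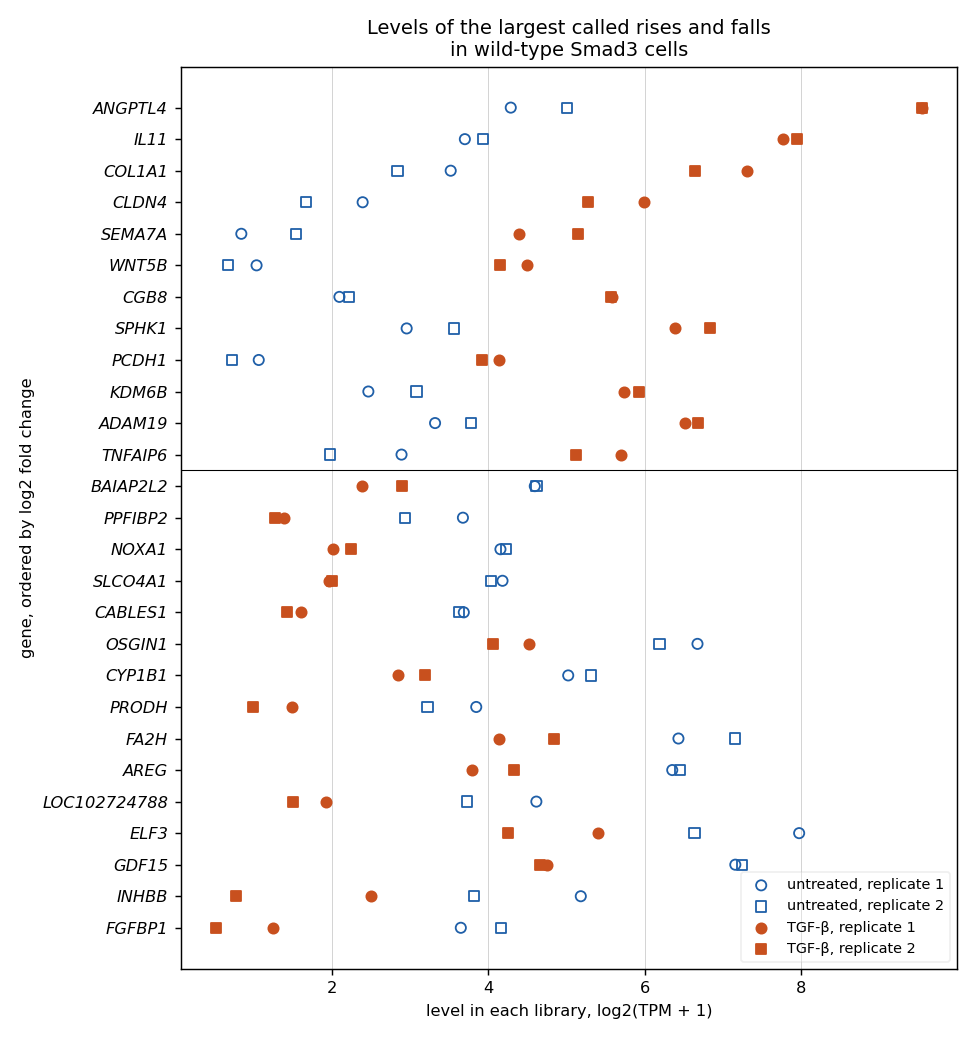
Levels in log2(TPM + 1), on the x axis, of 12 of the 15 largest called rises and of the 15 largest called falls, 1 row per gene ordered by log2 fold change. Open blue marks are untreated and filled orange marks treated libraries, circles replicate 1 and squares replicate 2, and in each row both treated marks lie on one side of both untreated marks.

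The sequences before the start sites of leading genes are shown because Smad3 binds short DNA motifs, the 5-base element CAGAC and GC-rich 5-base elements, and acts at many genes with AP-1, which binds TGACTCA. They are the 250 bases before the RefSeq start (GRCh38.p14) of the 3 largest rises and the 3 largest falls that have 1 listed start within 30 bases of the start in the deposited tables, without the CGB genes. Capitals mark CAGAC and TGACTCA on either strand (GTCTG and TGAGTCA on the other).
ANGPTL4, + strand, chr19:8363905-8364154: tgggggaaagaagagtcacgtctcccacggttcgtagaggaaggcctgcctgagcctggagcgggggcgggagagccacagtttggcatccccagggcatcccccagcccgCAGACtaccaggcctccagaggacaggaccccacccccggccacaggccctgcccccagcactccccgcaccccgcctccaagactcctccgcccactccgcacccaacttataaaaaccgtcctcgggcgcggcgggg
IL11, - strand, chr19:55370464-55370713: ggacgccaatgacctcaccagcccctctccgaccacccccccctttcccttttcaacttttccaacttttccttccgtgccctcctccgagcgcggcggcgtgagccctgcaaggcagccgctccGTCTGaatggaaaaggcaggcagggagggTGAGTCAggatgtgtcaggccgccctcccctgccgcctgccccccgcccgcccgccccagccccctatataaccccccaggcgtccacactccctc
TNFAIP6, + strand, chr2:151357342-151357591: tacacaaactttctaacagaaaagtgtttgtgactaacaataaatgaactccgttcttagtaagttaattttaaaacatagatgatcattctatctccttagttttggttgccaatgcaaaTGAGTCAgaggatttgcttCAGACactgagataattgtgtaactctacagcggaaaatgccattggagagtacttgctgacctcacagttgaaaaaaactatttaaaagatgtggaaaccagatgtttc
FGFBP1, - strand, chr4:15938741-15938990: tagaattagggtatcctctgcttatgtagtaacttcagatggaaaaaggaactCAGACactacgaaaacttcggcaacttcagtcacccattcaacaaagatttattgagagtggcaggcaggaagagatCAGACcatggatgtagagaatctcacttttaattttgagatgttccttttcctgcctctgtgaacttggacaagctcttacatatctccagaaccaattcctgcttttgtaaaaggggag
INHBB, + strand, chr2:120345886-120346135: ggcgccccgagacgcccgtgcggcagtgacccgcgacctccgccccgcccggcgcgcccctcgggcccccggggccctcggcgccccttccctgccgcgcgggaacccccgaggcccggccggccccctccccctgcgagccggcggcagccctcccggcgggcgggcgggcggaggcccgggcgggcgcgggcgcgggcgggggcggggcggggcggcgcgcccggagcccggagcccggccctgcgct
GDF15, + strand, chr19:18385908-18386157: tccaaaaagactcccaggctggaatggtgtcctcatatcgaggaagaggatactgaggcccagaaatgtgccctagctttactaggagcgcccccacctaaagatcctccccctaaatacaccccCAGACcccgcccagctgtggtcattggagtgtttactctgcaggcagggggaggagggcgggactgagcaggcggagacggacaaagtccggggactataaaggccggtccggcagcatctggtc
IL11 and TNFAIP6 held 1 CAGAC and 1 TGACTCA each, ANGPTL4 and GDF15 held 1 CAGAC, FGFBP1 held 2, and INHBB, whose window was 89.6% G or C, held neither but had 10 matches to GGCGC. Over the 7030 tested genes with 1 listed start, CAGAC was in 35.9% of such windows, against 40.6% for 180 genes that rose and 38.4% for 112 that fell. The shares for TGACTCA were 2.46, 5.56 and 2.68%, the middle value resting on 10 windows. For GGCGC they were 74.1, 68.9 and 62.5%, and for CACGTG, the palindromic E-box, 9.12, 6.67 and 8.93%. The last 2 bases of TGACTCA are the first 2 of CAGAC, so adjoining matches can share them. These are matches of letters in 1 window and carry no test.

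The largest falls were smaller in size than the largest rises and included several genes for secreted growth factors. FGFBP1 (chr4:15935569-15938740), a carrier protein that releases fibroblast growth factors from the matrix, was at 11.6 and 16.99 TPM untreated and at 1.39 and 0.438 TPM treated. INHBB, the activin beta B subunit, was at 35.3 and 13.2 TPM untreated and 4.69 and 0.714 TPM treated. GDF15, a stress-induced member of the TGF-β family, was at 142 and 151 TPM untreated and 25.9 and 24.3 TPM treated. In all 3 genes the treated libraries were below the untreated ones, closely matched for GDF15 and several-fold apart between replicates for INHBB. FGFBP1 fell by 3.02 ± 0.42 on the log2 scale (adjusted p = 0.00442), INHBB fell by 2.86 ± 0.23 (adjusted p = 0.00033) and GDF15 fell by 2.50 ± 0.27 (adjusted p = 0.00136).

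ELF3, an epithelial ETS transcription factor, was at 250.1 and 98.4 TPM untreated and at 41.5 and 18.1 TPM treated. AREG, the epidermal growth factor receptor ligand amphiregulin, was at 80.6 and 86.2 TPM untreated and 12.8 and 19.1 TPM treated. FA2H, a fatty acid hydroxylase, was at 85.2 and 142 TPM untreated and 16.6 and 27.6 TPM treated. On the log2 scale ELF3 fell by 2.47 ± 0.23, AREG fell by 2.34 ± 0.19 and FA2H fell by 2.30 ± 0.18 (adjusted p = 0.000651, 0.000295 and 0.000233). The other falls among the 15 ranged from -1.96 to -2.45. They were in LOC102724788 and PRODH, the proline dehydrogenase gene, which share near-identical sequence in the genome and are uncertain as separate genes. CYP1B1, a cytochrome P450, OSGIN1, an oxidative stress-induced growth inhibitor, CABLES1, a partner of cyclin-dependent kinases, and SLCO4A1, an organic anion transporter, followed. NOXA1, an activator of NADPH oxidase, PPFIBP2, a liprin, and BAIAP2L2, a membrane-bending protein, were the last.

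Calls of GDF15, AREG, FA2H, CYP1B1, OSGIN1, CABLES1 and LOC102724788 were firm. FGFBP1, SLCO4A1 and NOXA1 lost their call when either treated library was left out (adjusted p = 0.058 to 0.121). PRODH and BAIAP2L2 lost it without treated replicate 1 (adjusted p = 0.0617 and 0.091). PPFIBP2 lost it without treated replicate 1 (adjusted p = 0.091) or untreated replicate 1 (0.0503). INHBB, ELF3 and PRODH were not called without the replicate block (adjusted p = 0.171, 0.19 and 0.0525).

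Of the 10 most abundant called genes, 8 rose. Vimentin (VIM), the intermediate filament of mesenchymal cells, was at 1157 and 1897 TPM untreated and at 1923 and 3502 TPM treated. Tropomyosin 1 (TPM1), which lines actin filaments, was at 853 and 1070.4 TPM untreated and 1900.0 and 2138 TPM treated. Transglutaminase 2 (TGM2), which crosslinks matrix proteins, was at 289.8 and 412 TPM untreated and 877 and 1249 TPM treated. VIM showed a replicate difference nearly as large as its response, since untreated replicate 2 was close to treated replicate 1, while TPM1 and TGM2 were clearly apart. Log2 fold changes were 0.81 ± 0.17, 1.08 ± 0.17 and 1.60 ± 0.15.

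The metal-binding protein gene MT2A rose from 451 and 538 TPM untreated to 1334 and 1383 TPM treated, TNFRSF12A, the receptor of TWEAK, from 609 and 817 TPM untreated to 1359 and 1418 TPM treated, and the tetraspanin gene CD151 from 706 and 676 TPM untreated to 1158 and 1096 TPM treated. Annexin A1 (ANXA1), a phospholipid-binding protein, fell from 1278 and 1048 TPM untreated to 770.1 and 585 TPM treated, and DYNLL1, a dynein light chain, from 1425 and 1236 TPM untreated to 972 and 711 TPM treated. None of the groups overlapped. Calls were firm for TGFBI, MT2A and TGM2. Those of VIM, TPM1, TNFRSF12A, CD151, ANXA1 and DYNLL1, with log2 fold changes of at most 1.08 in size, were lost when any 1 of the 4 libraries was left out (adjusted p = 0.0666 to 0.424). The fit without the replicate block did not call any of these 6 genes (adjusted p = 0.0516 to 0.405).

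Genes of the TGF-β pathway itself changed at several levels. Receptor genes moved in opposite directions. TGFBR1, the type I receptor, was at 7.12 and 5.74 TPM untreated and at 24.7 and 25.3 TPM treated (log2 fold change 1.81 ± 0.23, adjusted p = 0.00318). TGFBR2, the type II receptor that binds the ligand first, was at 35.3 and 31.8 TPM untreated and 17.00 and 15.01 TPM treated (-1.02 ± 0.21, adjusted p = 0.0294). TGFBR3, the coreceptor betaglycan, was at 2.22 and 1.82 TPM untreated and 0.256 and 0.273 TPM treated (-1.25 ± 0.28, adjusted p = 0.0413). The treated libraries of TGFBR1 were above, and those of TGFBR2 and TGFBR3 below, the untreated ones without overlap. Of 10 receptor genes of the family tested, 1 rose and 2 fell, with a median of -0.02.

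Inhibitors of Smad signalling rose in 5 of 12 genes tested, with a median log2 fold change of 0.64. Over the other settings, 1 to 6 of them were called higher, the lowest count coming when untreated replicate 2 or either treated library was left out. SMAD7, the inhibitory Smad that recruits ubiquitin ligases to the receptor, was at 15.5 and 14.6 TPM untreated and 32.3 and 31.5 TPM treated (1.03 ± 0.18, adjusted p = 0.0116). PMEPA1, a membrane protein that sequesters receptor-activated Smads, was at 139 and 118 TPM untreated and 411 and 429.8 TPM treated (1.71 ± 0.16, adjusted p = 0.000753). SMURF2, a ubiquitin ligase that works with Smad7, was at 7.56 and 11.6 TPM untreated and 18.5 and 35.2 TPM treated (1.36 ± 0.21, adjusted p = 0.00852). LDLRAD4, a relative of PMEPA1, was at 0.522 and 0.331 TPM untreated and 3.37 and 2.74 TPM treated (1.51 ± 0.28, adjusted p = 0.0179). Treated levels were above untreated ones for all 4 genes. SMAD7 was the only one of 7 Smad genes tested that passed, and the list's median was 0.15.

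Ligands and ligand-binding proteins of the family rose in 7 and fell in 3 of 18 genes tested, with a median of 0.79. Over the other settings the calls were 0 to 9 higher and 1 to 3 lower, with 0 higher when untreated replicate 2 or either treated library was left out and 1 higher without untreated replicate 1 or without the replicate block. LTBP4, which anchors latent TGF-β in the matrix, was at 47.98 and 64.04 TPM untreated and 108 and 162 TPM treated (1.24 ± 0.18, adjusted p = 0.00572). BMP6, a bone morphogenetic protein, was at 5.22 and 2.02 TPM untreated and 13.3 and 12.8 TPM treated (1.70 ± 0.27, adjusted p = 0.0086). The 3 genes that fell were INHBB and GDF15, described above, and BMP4, at 24.3 and 10.6 TPM untreated and 5.72 and 4.46 TPM treated (adjusted p = 0.0114; named after its values were seen). ID genes, which encode inhibitors of helix-loop-helix factors and are known targets of bone morphogenetic proteins, differed among themselves. ID2 was at 45.7 and 45.1 TPM untreated and 24.1 and 22.1 TPM treated (-0.94 ± 0.18, adjusted p = 0.0174), and ID1 and ID3 did not pass.

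Of the named pathway genes, the call of PMEPA1 was firm. TGFBR1 lost its call when either treated library was left out (adjusted p = 0.0691 to 0.0748), and SMURF2 and BMP6 also without untreated replicate 2 (adjusted p = 0.0617 to 0.168). BMP4 lost its call when treated replicate 1 or either untreated library was left out (adjusted p = 0.058 to 0.195). SMAD7, LDLRAD4, TGFBR2, TGFBR3, LTBP4 and ID2 lost theirs when any 1 of the 4 wild-type libraries was left out (adjusted p = 0.0512 to 0.34). Without the replicate block, SMURF2, TGFBR2, TGFBR3, BMP4, BMP6 and ID2 were not called (adjusted p = 0.057 to 0.208).

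Known target genes of Smad3 rose in 24 of 26 tested, with a median log2 fold change of 1.97, against 2.94% of all genes and a median of -0.06. The list was written with these data known and overlaps the largest rises, so its share is a description. Over the other settings 16 to 25 members were called higher, the lowest without treated replicate 1. Besides the genes above, JUNB, an AP-1 factor, was at 54.3 and 49.6 TPM untreated and 379.5 and 303 TPM treated, and CTGF, the connective tissue growth factor, at 14.3 and 13.3 TPM untreated and 80.00 and 81.5 TPM treated. PDGFB, a platelet-derived growth factor chain, was at 5.25 and 6.68 TPM untreated and 50.7 and 42.2 TPM treated. Log2 fold changes were 2.69 ± 0.29, 2.46 ± 0.21 and 2.77 ± 0.20, and the 3 calls were firm. The tested members that did not pass were fibronectin (FN1, 19.2 and 7.58 TPM untreated, 29.98 and 22.2 TPM treated, adjusted p = 0.0576) and integrin beta 6 (ITGB6, 1.24 and 1.63 TPM untreated and 4.60 and 3.33 TPM treated, adjusted p = 0.101). In both genes the treated libraries were above the untreated ones.

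EMT is a change from an epithelial to a mesenchymal phenotype that is driven by a small set of transcription factors. Of 13 such factors tested, 3 rose and 0 fell, with a median of 0.36, and 0 to 4 rose over the other settings, 0 of them without treated replicate 1. SNAI1, the repressor Snail, was at 3.85 and 4.48 TPM untreated and at 31.1 and 33.7 TPM treated (2.69 ± 0.31, adjusted p = 0.00178). SNAI2, the repressor Slug, was at 0.342 and 1.13 TPM untreated and 2.86 and 4.29 TPM treated (1.42 ± 0.26, adjusted p = 0.0156). HMGA2, an architectural chromatin protein, was at 9.20 and 29.3 TPM untreated and 32.02 and 81.7 TPM treated (1.57 ± 0.22, adjusted p = 0.00429). SNAI1 was low without TGF-β and similar in both treated libraries, whereas HMGA2 was higher in replicate 2 of both groups and its treated replicate 1 was close to untreated replicate 2. ZEB1 and TWIST1, named for their role after their values were seen, did not pass. ZEB1 was at 1.96 and 3.26 TPM untreated and 2.98 and 4.04 TPM treated, and TWIST1 at 11.2 and 10.9 TPM untreated and 9.34 and 7.35 TPM treated.

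Among 10 epithelial transcription and splicing factors tested, 3 fell and 1 rose, with a median of -0.80. ELF3 is given above. SPDEF, an ETS factor of secretory epithelium, was at 18.6 and 10.2 TPM untreated and 4.21 and 2.62 TPM treated (-1.77 ± 0.27, adjusted p = 0.00652), and KLF4 at 14.6 and 17.4 TPM untreated and 7.26 and 6.32 TPM treated (-1.12 ± 0.26, adjusted p = 0.0449). Of 20 adhesion and junction genes tested, 2 rose and 0 fell, while 5 positive and 13 negative values were not called. The list's median was -0.46 and ran from -0.52 to 0.38 over the other settings, above 0 in the fit with a minimum of 5 TPM. In those settings 1 to 2 members were called higher and 0 to 2 lower. CLDN4 and plakoglobin (JUP, 187 and 109 TPM untreated, 298 and 243 TPM treated, adjusted p = 0.0294) were those that rose. E-cadherin (CDH1, named for its role after its values were seen) was at 10.3 and 5.51 TPM untreated and at 2.61 and 2.44 TPM treated, without overlap, but the difference of -1.28 ± 0.34 on the log2 scale missed the threshold (adjusted p = 0.074).

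Mesenchymal markers rose in 3 of 7 tested (1 to 5 over the other settings, lowest with no minimum level or when untreated replicate 2 or either treated library was left out), with a median of 0.82. These were VIM, the actin-binding protein gene TAGLN (18.4 and 18.9 TPM untreated, 84.5 and 98.1 TPM treated, 2.23 ± 0.23, adjusted p = 0.00119) and N-cadherin (CDH2, 30.7 and 25.9 TPM untreated and 58.9 and 69.7 TPM treated, 1.16 ± 0.19, adjusted p = 0.00894). A list of keratins and VIM had 8 tested genes, of which VIM and KRT17 rose, with a median of 0.30. KRT17, which has near-identical pseudogenes, was listed at 0 in both untreated libraries and at 4.01 and 3.85 TPM in the treated ones (adjusted p = 0.0086).

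TAGLN and CLDN4 were firmly called among the EMT and epithelial genes of these lists. Without treated replicate 1, SNAI1 had an adjusted p of 0.0536. HMGA2 lost its call when either treated library was left out (adjusted p = 0.0714 to 0.091), SPDEF without treated replicate 1 or untreated replicate 2 (0.134 and 0.0749), CDH2 when either treated library or untreated replicate 2 was left out (0.0851 to 0.161) and KRT17 when either treated library or untreated replicate 1 was left out (0.0697 to 0.147). SNAI2, KLF4 and JUP lost theirs when any 1 of the 4 libraries was left out (adjusted p = 0.066 to 0.477). In the fit without the replicate block, HMGA2, SNAI2, SPDEF, KLF4 and JUP were not called (adjusted p = 0.109 to 0.39).

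Matrix genes rose in part of each family, and none of the collagens, glycoproteins, laminins or processing enzymes tested was called lower in the main fit. Collagen chains rose in 7 of 16 tested, with a median of 0.44, and in 3 to 7 over the other settings, the lowest without treated replicate 2. COL4A1, a chain of basement membrane type IV collagen, was at 32.5 and 35.7 TPM untreated and at 146 and 181 TPM treated (2.22 ± 0.16, adjusted p = 0.000207). Its partner chain COL4A2 was at 46.5 and 50.97 TPM untreated and 124 and 167 TPM treated (1.54 ± 0.20, adjusted p = 0.00342). COL5A1, a chain of the fibril-forming type V collagen, was at 37.7 and 37.9 TPM untreated and 162 and 213 TPM treated (2.27 ± 0.19, adjusted p = 0.000353). For each, both treated libraries were well above both untreated ones.

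COL4A1 and COL4A2 lie head to head, and the sequence between their RefSeq starts, 126 bases at GRCh38.p14 chr13:110307158-110307283, is shown because both genes are transcribed outward from it. It is given on the - strand, the strand of COL4A1.
COL4A1 to COL4A2: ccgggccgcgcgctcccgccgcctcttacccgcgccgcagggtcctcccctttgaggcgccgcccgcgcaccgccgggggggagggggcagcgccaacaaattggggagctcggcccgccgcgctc
It had neither CAGAC nor TGACTCA, 4 matches to GGCGC and 80.2% G or C.

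Matrix glycoproteins rose in 6 of 23 tested, with a median of 0.41, and in 3 to 8 over the other settings, the lowest when either treated library was left out. Besides TGFBI and CTGF, SPOCK1, a proteoglycan, was at 4.92 and 5.85 TPM untreated and at 18.2 and 24.7 TPM treated (1.80 ± 0.21, adjusted p = 0.00174). IGFBP7, an insulin-like growth factor binding protein of the matrix, was at 49.1 and 41.2 TPM untreated and 127 and 105 TPM treated (1.34 ± 0.16, adjusted p = 0.00201). Laminin chains rose in 2 of 8 tested, with a median of -0.14. Over the other settings 1 to 2 of them were called higher and 0 to 1 lower. LAMB3, a beta chain, was at 15.2 and 14.1 TPM untreated and 27.4 and 44.4 TPM treated (1.20 ± 0.26, adjusted p = 0.036). LAMA3, the alpha chain of the same trimer, did not pass and had the opposite sign, at 5.63 and 8.86 TPM untreated and 2.62 and 4.11 TPM treated (-0.91, adjusted p = 0.0964; named after its values were seen). Of 14 crosslinking and collagen-processing enzymes tested, 2 rose, with a median of 0.28. They were TGM2 and the prolyl hydroxylase subunit P4HA3, at 13.5 and 11.8 TPM untreated and 43.8 and 60.5 TPM treated (1.95 ± 0.23, adjusted p = 0.00194).

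Matrix proteases and their inhibitors rose in 11 and fell in 1 of 22 tested, with a median of 1.09. Over the other settings 4 to 11 were called higher and 0 to 1 lower, the fewest higher when either treated library was left out. MMP2, gelatinase A, was at 4.51 and 5.23 TPM untreated and at 35.97 and 46.4 TPM treated (2.84 ± 0.21, adjusted p = 0.000207). PLAUR, the urokinase receptor, was at 105 and 126 TPM untreated and 276 and 337 TPM treated (1.40 ± 0.14, adjusted p = 0.00119). ADAM19 was at 9.0 and 12.7 TPM untreated and 90.01 and 101 TPM treated. In each gene the treated libraries were high and the untreated low.

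Calls of COL4A1, COL5A1, TGFBI, CTGF, MMP2 and PLAUR were firm. Without treated replicate 2 the adjusted p was 0.0728 for COL4A2 and 0.0562 for P4HA3, and without treated replicate 1 it was 0.0645 for IGFBP7. SPOCK1 lost its call when either treated library was left out (adjusted p = 0.0524 to 0.0562), and LAMB3 when treated replicate 2 or either untreated library was left out (adjusted p = 0.166 to 0.368). LAMB3 was also not called without the replicate block (adjusted p = 0.061).

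Integrins, the receptors that join matrix to the cytoskeleton, rose in 5 of 12 subunits tested, with a median of 0.75. The count was 1 to 5 over the other settings, with 1 when either treated library was left out or without the replicate block. ITGA5, the alpha 5 subunit of the fibronectin receptor, was at 21.5 and 33.1 TPM untreated and at 72.9 and 140.0 TPM treated (1.88 ± 0.17, adjusted p = 0.000663). ITGA2, a collagen receptor subunit, was at 4.75 and 7.28 TPM untreated and 23.1 and 48.6 TPM treated (2.33 ± 0.29, adjusted p = 0.00249). Replicate 2 was the higher in both groups for these subunits. ITGAV and ITGB3 encode the subunits of integrin alpha V beta 3. ITGAV was at 19.8 and 29.6 TPM untreated and 56.95 and 78.1 TPM treated (1.42 ± 0.21, adjusted p = 0.00555), and ITGB3 at 1.20 and 1.82 TPM untreated and 4.47 and 10.4 TPM treated (1.67 ± 0.27, adjusted p = 0.00916). Replicate 2 was again the higher, and the groups did not overlap for any of the 4 genes.

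Stress fiber and contractile genes rose in 10 and fell in 1 of 32 tested, with a median of 0.42. Over the other settings 2 to 12 rose and 0 to 1 fell, the fewest rises coming when either treated library was left out. PDLIM7, a LIM protein of actin filaments, was at 90.2 and 115 TPM untreated and at 241 and 346 TPM treated (1.50 ± 0.16, adjusted p = 0.00134). Zyxin (ZYX), a focal adhesion protein, was at 255 and 397 TPM untreated and 590.5 and 895 TPM treated (1.19 ± 0.19, adjusted p = 0.0086). Calponin 1 (CNN1), an actin-binding protein of smooth muscle, was listed at 0 in both untreated libraries and at 3.55 and 3.62 TPM in the treated ones (adjusted p = 0.00441). MYLK, the myosin light chain kinase, named after its values were seen, was the member that fell, from 13.2 and 19.2 TPM untreated to 5.75 and 6.10 TPM treated (adjusted p = 0.0115).

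Genes around Rac1, the small GTPase that drives lamellipodia, were in lists of lamellipodium parts, inactivators and activators. Of 31 lamellipodium genes tested, such as subunits of the Arp2/3 and WAVE complexes, limma called 0 in either direction, with 4 at an unadjusted p under 0.05 and a median of 0.19. The 2 with the smallest p were ARPC5 at 180.4 and 153 TPM untreated and 247 and 217 TPM treated (adjusted p = 0.125) and CYFIP2 at 12.5 and 10.5 TPM untreated and 7.01 and 6.62 TPM treated (adjusted p = 0.152). Among 18 GTPase-activating proteins for Rac1 tested, 1 rose and 1 fell, with a median of -0.14. ARHGAP31 was at 1.01 and 2.34 TPM untreated and 3.70 and 7.07 TPM treated (1.25 ± 0.26, adjusted p = 0.027), and ARHGAP27 at 20.4 and 21.7 TPM untreated and 6.19 and 11.1 TPM treated (-1.24 ± 0.22, adjusted p = 0.0154). ARHGAP22 did not pass, at 1.71 and 3.97 TPM untreated and 1.22 and 1.67 TPM treated (adjusted p = 0.341). ARHGAP24, at 2.05 and 1.39 TPM untreated and 0.457 and 0.566 TPM treated, was under the level for testing. In both genes the levels were low and the treated libraries were below the untreated ones. The study chose ARHGAP22, ARHGAP24 and ARHGAP27 from this sequencing and then followed them by quantitative PCR over several time points. It reported that TGF-β lowered them with wild-type Smad3 but not with Smad3(RA/KP). In the Smad3(RA/KP) line, ARHGAP27 was at 17.7 and 18.8 TPM untreated and 13.6 and 17.7 TPM treated. Its log2 fold change there was -0.22 ± 0.22, and the difference of the responses did not pass (limma adjusted p = 0.881). Rac exchange factors, which activate Rac, rose in 2 and fell in 1 of 20 tested, with a median of 0.00. DOCK4 was at 1.84 and 3.15 TPM untreated and 7.57 and 10.2 TPM treated (1.51 ± 0.25, adjusted p = 0.00994), VAV2 at 39.6 and 37.3 TPM untreated and 64.7 and 69.6 TPM treated (0.79, adjusted p = 0.0368) and VAV3 at 5.86 and 2.02 TPM untreated and 1.59 and 0.392 TPM treated (-1.26, adjusted p = 0.036).

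ITGA5 and PDLIM7 were firm calls. ITGA2 and CNN1 lost their calls when either treated library was left out (adjusted p = 0.0536 to 0.0837), ITGAV also without untreated replicate 1 (0.0571 to 0.104) and ITGB3 also without untreated replicate 2 (0.111 to 0.166). ZYX, MYLK, ARHGAP27, ARHGAP31, DOCK4, VAV2 and VAV3 were not called when any 1 of the 4 libraries was left out (adjusted p = 0.0573 to 0.375). ITGA2, ITGAV, ITGB3, ZYX, ARHGAP27, ARHGAP31, VAV2 and VAV3 were not called without the replicate block (adjusted p = 0.0541 to 0.302).

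Genes for signals between cells changed in both directions. Ligands and receptors of the epidermal growth factor receptor family rose in 2 and fell in 3 of 11 tested, with a median of -0.60. HBEGF, the heparin-binding ligand, was at 3.13 and 4.48 TPM untreated and at 9.40 and 19.1 TPM treated (1.60 ± 0.25, adjusted p = 0.00766), and the neuregulin gene NRG1 at 73.02 and 83.1 TPM untreated and 151 and 191 TPM treated (1.11 ± 0.21, adjusted p = 0.0202). EREG, which encodes epiregulin and lies next to AREG among the tested genes, was at 17.3 and 21.02 TPM untreated and 3.93 and 7.84 TPM treated (-1.60 ± 0.31, adjusted p = 0.021). Ligands of this receptor family moved in both directions, HBEGF and NRG1 up and AREG and EREG down, each without overlap of the groups.

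The IL6 family rose in 2 of 8 tested, with a median of -0.09. IL6 was at 1.47 and 4.29 TPM untreated and at 9.44 and 29.7 TPM treated, with replicate 2 about 3-fold above replicate 1 in both groups (2.31 ± 0.27, adjusted p = 0.00183, and 0.226 without the replicate block). Among 11 chemokines and inflammatory cytokines tested, 3 fell and 1 rose, with a median of -0.35. CSF1, the macrophage growth factor, was at 19.5 and 32.5 TPM untreated and 7.48 and 11.05 TPM treated (-1.38 ± 0.20, adjusted p = 0.00599). The neutrophil chemokine gene CXCL2 was at 5.41 and 14.03 TPM untreated and 1.81 and 4.67 TPM treated (adjusted p = 0.0349). CXCL5, of the same family, was at 88.03 and 69.3 TPM untreated and 30.1 and 37.9 TPM treated (adjusted p = 0.0215). IL32 was the member that rose, from 24.6 and 54.8 TPM untreated to 38.8 and 114 TPM treated (adjusted p = 0.0345), and its groups overlapped, with replicate 2 the higher in both. Without the replicate block it was not called (adjusted p = 0.731).

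Vascular and fibroblast growth factors and their receptors rose in 9 and fell in 1 of 21 tested, with a median of 0.67. Over the other settings 3 to 11 rose, the fewest when untreated replicate 2 or treated replicate 1 was left out, and 0 to 3 fell. PDGFB and ANGPTL4 were the largest rises and FGFBP1 the fall. Wnt and Notch genes rose in 4 and fell in 2 of 25 tested, with a median of 0.01. Over the other settings 1 to 4 rose and 0 to 5 fell. WNT7A, a Wnt ligand, was listed at 0 untreated and was at 3.88 and 4.40 TPM treated (adjusted p = 0.00231). JAG1, a Notch ligand and known TGF-β target, was at 30.1 and 26.8 TPM untreated and 68.1 and 72.9 TPM treated (1.28 ± 0.18, adjusted p = 0.00468). LFNG, a glycosyltransferase that modifies Notch, was at 24.6 and 15.2 TPM untreated and 65.7 and 42.5 TPM treated (1.40 ± 0.21, adjusted p = 0.00652).

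Of these signalling genes, IL11, WNT5B, AREG and PDGFB were called firmly. IL6 and WNT7A lost their calls when either treated library was left out (adjusted p = 0.051 to 0.0617), HBEGF, CSF1 and JAG1 also without untreated replicate 2 (0.0704 to 0.131) and CXCL5 also without untreated replicate 1 (0.133 to 0.276). NRG1, EREG, CXCL2, IL32 and LFNG lost theirs when any 1 of the 4 libraries was left out (adjusted p = 0.0558 to 0.377). Without the replicate block HBEGF, NRG1, EREG, IL6, CXCL2, IL32 and LFNG were not called (adjusted p = 0.0677 to 0.731).

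AP-1 factors, which bind DNA as dimers and cooperate with Smads, rose in 3 of 11 tested, with a median of 0.43. Besides JUNB, JUN was at 44.6 and 84.2 TPM untreated and at 148 and 199 TPM treated (1.47 ± 0.18, adjusted p = 0.00218) and MAFK at 73.9 and 79.4 TPM untreated and 148 and 131 TPM treated (0.85 ± 0.17, adjusted p = 0.0264). Among 13 KLF and immediate early factors tested, 3 rose and 2 fell, with a median of 0.40. KLF7 was at 2.29 and 2.77 TPM untreated and 8.61 and 9.81 TPM treated (1.53 ± 0.23, adjusted p = 0.00652), IER3 at 138 and 181 TPM untreated and 299.7 and 358 TPM treated (adjusted p = 0.0101), KLF6 at 29.2 and 38.4 TPM untreated and 50.05 and 82.1 TPM treated (adjusted p = 0.0205) and IER5 at 53.4 and 52.5 TPM untreated and 20.1 and 30.9 TPM treated (adjusted p = 0.0186). Target genes of YAP and TEAD rose in 4 of 18 tested (1 to 4 over the other settings), with a median of 0.04. CTGF and CYR61, matricellular proteins that are also known TGF-β targets, were among them, CYR61 at 42.5 and 68.6 TPM untreated and 92.9 and 185 TPM treated (1.26 ± 0.17, adjusted p = 0.00356). NT5E, an ectonucleotidase, was at 13.1 and 18.5 TPM untreated and 28.6 and 55.5 TPM treated (adjusted p = 0.0086), and F3, tissue factor, at 1.23 and 1.99 TPM untreated and 4.94 and 6.94 TPM treated (adjusted p = 0.0192). ERK feedback genes rose in 1 and fell in 1 of 15 tested, with a median of -0.10. They were the phosphatase genes DUSP7, at 5.07 and 8.31 TPM untreated and 11.6 and 15.04 TPM treated (adjusted p = 0.0371), and DUSP4, at 90.6 and 90.4 TPM untreated and 38.01 and 49.3 TPM treated (adjusted p = 0.0157).

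JUN lost its call without treated replicate 1 (adjusted p = 0.0637). IER3 lost it when either treated library or untreated replicate 1 was left out (adjusted p = 0.111 to 0.169), and CYR61 and NT5E when either treated library or untreated replicate 2 was left out (0.0583 to 0.151). MAFK, KLF6, KLF7, IER5, F3, DUSP4 and DUSP7 were not called when any 1 of the 4 libraries was left out (adjusted p = 0.0512 to 0.398). JUN, MAFK, KLF6, CYR61, NT5E and DUSP7 were also not called without the replicate block (adjusted p = 0.0538 to 0.239).

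Cell cycle genes had small negative values at 8 h. Limma called 0 of 31 DNA replication genes, with 8 at an unadjusted p under 0.05 and a median of -0.36, and 0 of 24 mitosis genes, with 0 at that p and a median of -0.17. MCM2, a subunit of the replicative helicase, was at 110.0 and 107 TPM untreated and at 75.7 and 69.7 TPM treated (-0.57 ± 0.18, adjusted p = 0.119), and the licensing factor gene CDT1 at 64.8 and 59.9 TPM untreated and 44.9 and 44.4 TPM treated (-0.47 ± 0.16, adjusted p = 0.15). The mitosis genes with the smallest p were BIRC5 (229 and 186 TPM untreated and 215 and 136 TPM treated, adjusted p = 0.481) and CDCA8 (67.04 and 66.7 TPM untreated and 55.4 and 57.2 TPM treated, adjusted p = 0.531). Among 16 regulators of G1 tested, CDKN1A, the cyclin-dependent kinase inhibitor p21, rose from 139 and 127 TPM untreated to 245 and 252 TPM treated (0.90 ± 0.16, adjusted p = 0.0139). E2F2, an activator of S phase genes, fell from 6.84 and 3.43 TPM untreated to 1.61 and 1.42 TPM treated (-1.23 ± 0.27, adjusted p = 0.0364). Both calls were lost when any 1 of the 4 libraries was left out (adjusted p = 0.111 to 0.416), and that of E2F2 also without the replicate block (0.164). The G1 list had a median of -0.24, and over the other settings 0 to 1 of its members rose and 0 to 4 fell.

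Metabolic and stress genes held some of the clear single changes. Targets of NRF2, the oxidative stress factor that is constitutively active in A549, rose in 1 and fell in 2 of 24 tested, with a median of -0.40. Over the other settings 1 of these targets was called higher and 1 to 7 were called lower. HMOX1, heme oxygenase 1, was at 165 and 177 TPM untreated and at 422 and 514 TPM treated (1.44 ± 0.16, adjusted p = 0.00136). OSGIN1 was at 101 and 71.9 TPM untreated and 21.96 and 15.8 TPM treated, and ABCC2, an organic anion pump, at 149 and 137 TPM untreated and 49.4 and 47.2 TPM treated (-1.55 ± 0.21, adjusted p = 0.00405). HMOX1 thus moved against the other members that passed. CYP1B1, a target of the aryl hydrocarbon receptor, was at 31.5 and 38.7 TPM untreated and 6.21 and 8.14 TPM treated (-2.15 ± 0.24, adjusted p = 0.00145), the 1 called of 6 such genes tested, whose median was -0.56.

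Genes of aldehyde, alcohol and drug metabolism fell in 4 of 15 tested, with a median of -0.29. CYP4F3 and CYP4F12 are fatty acid hydroxylase genes of similar sequence, so reads could be split between them. CYP4F3 was at 6.64 and 4.30 TPM untreated and 1.72 and 0.501 TPM treated (adjusted p = 0.0101), and CYP4F12 at 6.98 and 3.06 TPM untreated and 0 and 0.326 TPM treated (adjusted p = 0.0129). ALDH1A3, which makes retinoic acid, was at 24.4 and 33.04 TPM untreated and 13.1 and 17.6 TPM treated (adjusted p = 0.0412), and ALDH3B1, a membrane aldehyde dehydrogenase, at 278 and 224 TPM untreated and 157 and 144 TPM treated (adjusted p = 0.0488). Of 24 cholesterol and fatty acid synthesis genes tested, 1 rose and 2 fell, with a median of -0.18. ACLY, which makes cytosolic acetyl-CoA, was at 283 and 309.9 TPM untreated and 562 and 597 TPM treated (0.96 ± 0.16, adjusted p = 0.0091) and the elongase gene ELOVL6 at 10.9 and 12.95 TPM untreated and 4.09 and 6.19 TPM treated (adjusted p = 0.0257).

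Glycolysis and lactate genes rose in 1 and fell in 2 of 24 tested, with a median of 0.01. SLC16A1, a lactate transporter, was at 11.04 and 9.60 TPM untreated and at 22.7 and 22.1 TPM treated (1.05 ± 0.19, adjusted p = 0.0154), the enolase gene ENO2 at 47.7 and 49.6 TPM untreated and 25.98 and 29.2 TPM treated (adjusted p = 0.0391) and the pyruvate dehydrogenase kinase gene PDK4 at 3.80 and 1.10 TPM untreated and 0.264 and 0 TPM treated (adjusted p = 0.0393). Amino acid and endoplasmic reticulum stress genes rose in 2 and fell in 2 of 25 tested, with a median of 0.05. HERPUD1 and the chaperone gene HSPA5 belong to the unfolded protein response. HERPUD1 was at 58.5 and 75.1 TPM untreated and 114 and 143 TPM treated (adjusted p = 0.0101), and HSPA5 at 195 and 264 TPM untreated and 297 and 484 TPM treated (adjusted p = 0.045). CHAC1, a glutathione-degrading enzyme of the amino acid response, was at 15.6 and 17.3 TPM untreated and 7.13 and 7.54 TPM treated (adjusted p = 0.049) and fell, as did GDF15.

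Lung and endoderm genes rose in 2 and fell in 1 of 18 tested, with a median of -0.37. HNF4A, a nuclear receptor of endoderm, was at 13.9 and 9.38 TPM untreated and at 47.6 and 27.3 TPM treated (1.58 ± 0.19, adjusted p = 0.00213). AGR2, a disulfide isomerase of secretory cells, was at 370.4 and 139.6 TPM untreated and 212 and 77.6 TPM treated, so that its groups overlapped and its call (adjusted p = 0.0432) was lost without the replicate block (0.778). Interferon-stimulated genes fell in 2 and rose in 0 of 20 tested, with a median of -0.22. OAS1, an antiviral oligoadenylate synthetase, was at 69.7 and 52.7 TPM untreated and 32.96 and 22.8 TPM treated (-1.12 ± 0.17, adjusted p = 0.00613), and the immunoproteasome subunit gene PSMB9 at 25.9 and 35.00 TPM untreated and 12.1 and 16.6 TPM treated (adjusted p = 0.0374). Acute phase and complement genes rose in 1 of 11 tested, CD59, at 71.5 and 77.2 TPM untreated and 112 and 129 TPM treated (adjusted p = 0.0482), with a median of -0.30. Markers of other cell types had 5 tested genes, of which limma called 0, with 2 at an unadjusted p under 0.05. These were RBFOX3 (adjusted p = 0.227) and CD14 (adjusted p = 0.248).

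HMOX1, OSGIN1 and CYP1B1 were firm calls among the metabolic, stress and identity genes. ABCC2 and HNF4A lost their calls when either treated library was left out (adjusted p = 0.0512 to 0.0898), CYP4F3 also without untreated replicate 2 (0.122 to 0.157) and PDK4 also without untreated replicate 1 (0.212 to 0.405). CYP4F12 lost its call without replicate 1 of either group (adjusted p = 0.142 and 0.0856). ACLY, ELOVL6, SLC16A1, ENO2, HERPUD1, HSPA5, CHAC1, ALDH1A3, ALDH3B1, AGR2, OAS1, PSMB9 and CD59 were not called when any 1 of the 4 libraries was left out (adjusted p = 0.0576 to 0.456). Of these genes, CYP4F3, CYP4F12, ALDH1A3, ALDH3B1, ELOVL6, ENO2, PDK4, HERPUD1, HSPA5, CHAC1, HNF4A, AGR2, OAS1, PSMB9 and CD59 were also not called without the replicate block (adjusted p = 0.0644 to 0.778).

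**Figure D3:**
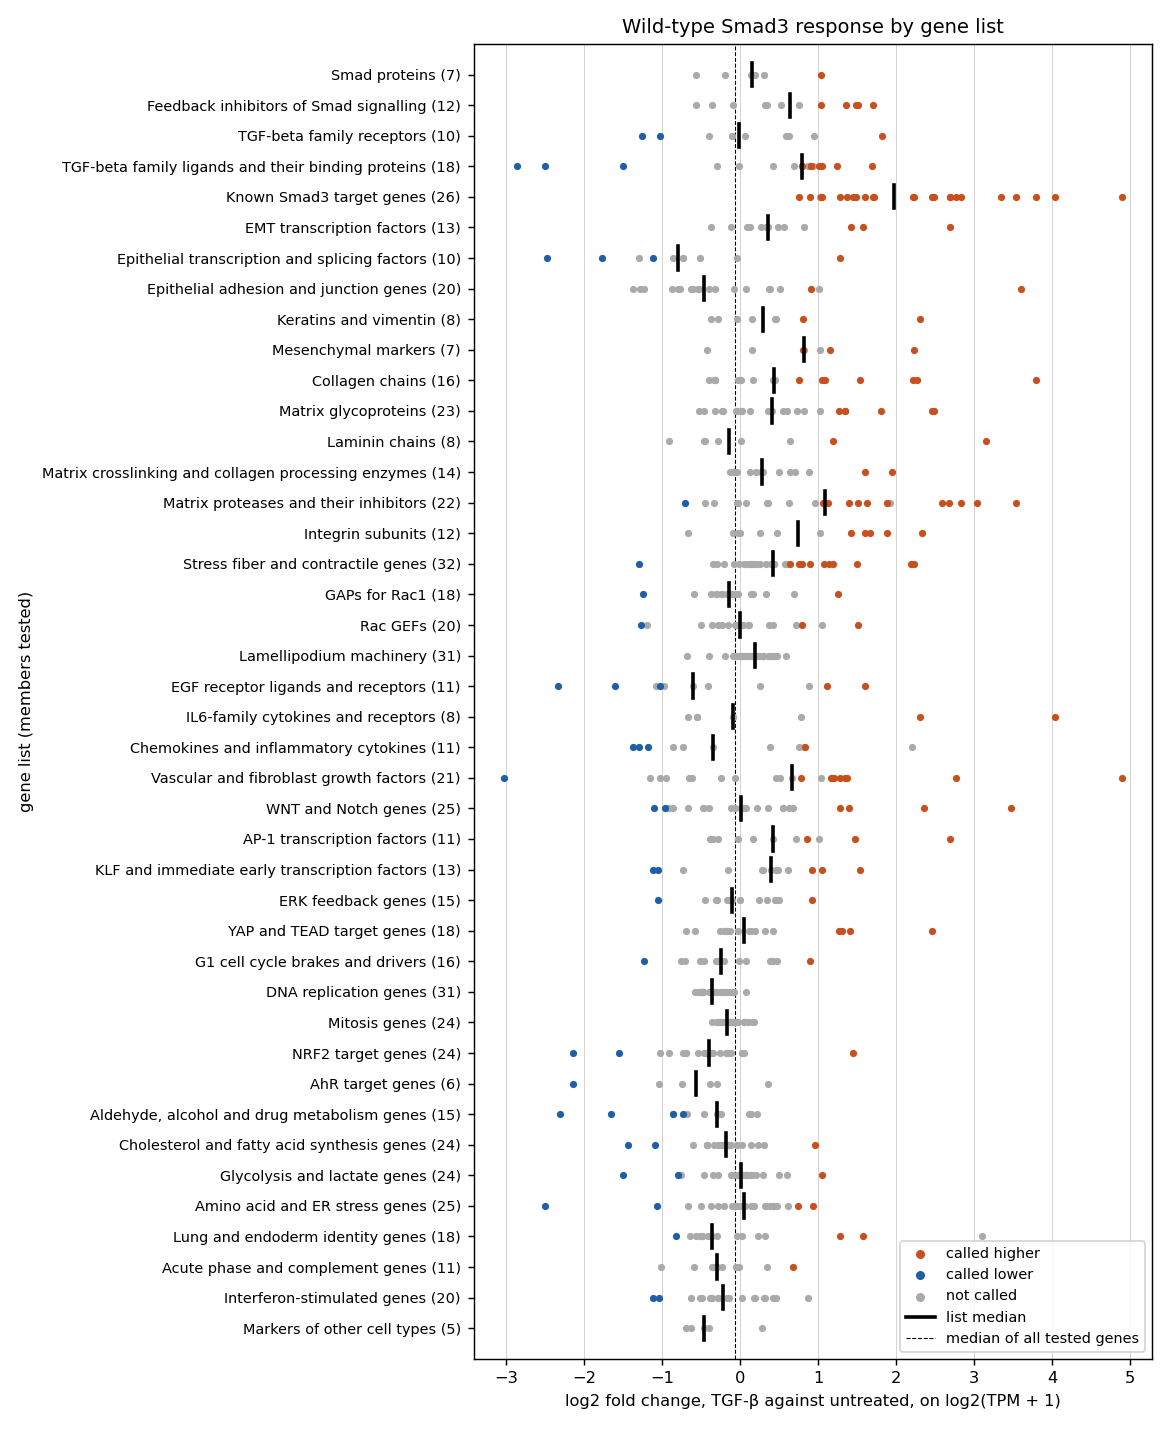
Log2 fold change of TGF-β against untreated wild-type Smad3 cells, on log2(TPM + 1), for each tested member of the gene lists with at least 5 tested members. Orange points were called higher, blue lower and grey were not called, black bars are list medians and the dashed line is the median of all tested genes (-0.06); the bar of the known Smad3 targets is farthest to the right (1.97).

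Some genes were listed at 0 in both libraries of one group and above 1 TPM in both of the other. There were 43 that were at 0 untreated and 41 that were at 0 treated, over all 30017 symbols, and no fold is given for them. They were picked for a 0 in both libraries of a group, so that group shows no spread, and a 0 can be a failed estimate. Their adjusted p-values, and the settings that keep a call, are therefore descriptions and no support for the change. CCM2L, a relative of a cerebral cavernous malformation protein, was at 10.02 and 6.94 TPM treated (adjusted p = 0.000634). R3HDML, a putative serine protease inhibitor gene next to HNF4A, was at 9.24 and 4.86 TPM (adjusted p = 0.00136), and MMP10, the matrix metalloprotease stromelysin 2, at 2.39 and 9.70 TPM (adjusted p = 0.0181). LCE3D, a gene of the epidermal cornified envelope, was at 2.44 and 8.71 TPM (adjusted p = 0.00865), the noncoding RNA gene LINC00313 at 3.89 and 5.81 TPM (adjusted p = 0.00134) and CGB1 at 12.01 and 7.03 TPM (adjusted p = 0.0028). In MMP10 and LCE3D treated replicate 2 was over 3-fold above treated replicate 1. In the other direction, ROPN1L, a sperm flagellum protein gene, was at 4.24 and 2.83 TPM untreated (adjusted p = 0.00407) and LOC101928274 at 4.04 and 6.94 TPM (adjusted p = 0.0115). BLOC1S1-RDH5, a readthrough transcript that shares reads with its 2 parent genes, was at 8.69 and 6.89 TPM (adjusted p = 0.0113). MIR192, a microRNA gene, was at 5.16 and 2.22 TPM untreated (adjusted p = 0.0373) and lost its call when any 1 of the 4 libraries was left out (0.108 to 0.398). MIR1226 did not pass (adjusted p = 0.405), and TRIM34 was under the level for testing. CCM2L, R3HDML and LINC00313, too low for the fit with a minimum of 5 TPM, were called in each of the 18 other settings. CGB1 and ROPN1L lost theirs without treated replicate 1 (adjusted p = 0.0786 and 0.091), BLOC1S1-RDH5 when either treated library was left out (0.126 to 0.157), MMP10 and LOC101928274 when either treated library or untreated replicate 2 was left out (0.0563 to 0.248) and LCE3D without replicate 2 of either group (0.0673 to 0.139). MMP10 and MIR192 were not called without the replicate block (adjusted p = 0.0892 and 0.139).

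Called genes could still differ in size between replicates. LY6K, a cell surface antigen, was at 2.80 and 12.8 TPM untreated and 0.339 and 0.777 TPM treated, and the difference of treated minus untreated in log2(TPM + 1) was -1.51 in replicate 1 and -2.96 in replicate 2. S1PR5, a receptor of sphingosine 1-phosphate, was at 0.681 and 1.15 TPM untreated and 8.34 and 3.11 TPM treated, with differences of 2.47 and 0.94. LY6K lost its call without replicate 2 of either group (adjusted p = 0.099 to 0.145), and S1PR5 when either treated library or untreated replicate 1 was left out (0.0632 to 0.398). Neither was called without the replicate block (adjusted p = 0.17 and 0.0773).

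The response of wild-type Smad3 cells was set beside that of Smad3(RA/KP) cells to see where it differed. The mutant line does not share control libraries with the wild-type line, and line, clone and mutation cannot be told apart. Its own response had 458 genes higher (3.49%) and 197 lower (1.5%). Of the 387 genes called higher in wild-type cells, 383 had the same sign in Smad3(RA/KP) cells and 308 were called higher there as well. Of the 228 called lower, 219 had the same sign and 94 were called lower. The median log2 fold changes of the 387 genes were 1.36 in wild-type and 1.26 in mutant cells, and those of the 228 genes were -1.29 and -0.89. The genes were chosen for passing in wild-type cells, which favours larger values there, so these counts and medians carry no test. The share of all tested genes with the same sign in both lines was not computed, so the same-sign counts have no background beside them.

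The test of the difference itself, an interaction of line and treatment over all genes, passed for 3 of 13141 genes (0.0228%), which are given after this section. At an unadjusted p under 0.05 there were 564 genes, of which 74 were called in wild-type cells. No gene among the 15 largest rises or falls passed the adjusted test. These 30 genes were chosen for large changes in wild-type cells, which favours larger values there. The smallest p among them was for INHBB, with fitted values of -2.86 ± 0.23 in wild-type and -1.36 ± 0.23 in mutant cells (difference -1.50 ± 0.33, limma adjusted p = 0.881). NOXA1 followed, with -2.06 ± 0.30 and -0.57 ± 0.30 (adjusted p = 0.881). ADAM19 had 3.04 ± 0.19 and 2.18 ± 0.19 (adjusted p = 0.881). ANGPTL4, at 4.89 ± 0.20 and 4.77 ± 0.20, and KDM6B, at 3.05 ± 0.19 and 3.11 ± 0.19, were close in both lines.

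Among the other genes named above, LINC00313 had the smallest adjusted p of the difference, 0.464. It was at 3.89 and 5.81 TPM in treated wild-type cells, and at 2.86 and 3.07 TPM untreated and 3.93 and 3.58 TPM treated in mutant cells. BLOC1S1-RDH5, ROPN1L and SLC16A1 were next, with an adjusted p of the difference of 0.763, 0.79 and 0.881. None of these differences passed over all genes.

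**Figure D4:**
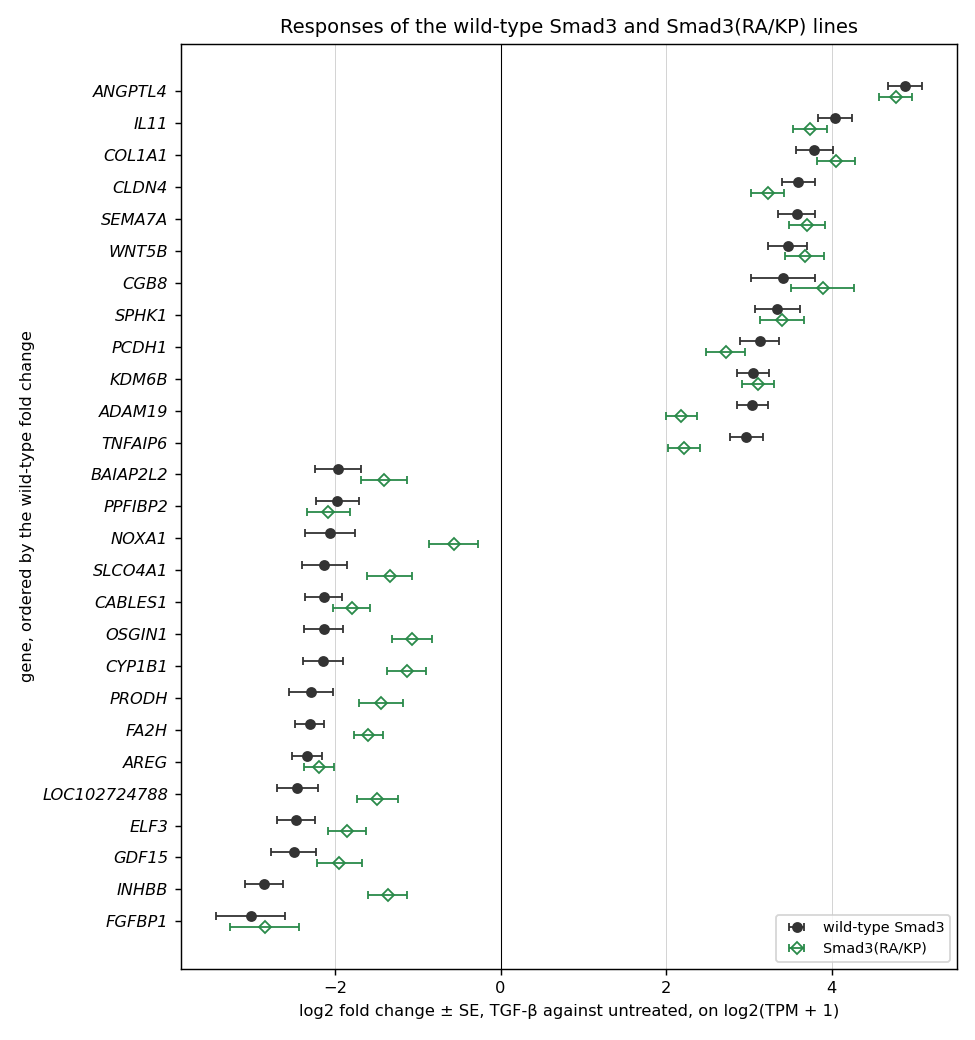
Log2 fold change with its standard error, on the x axis, of 12 of the 15 largest called rises and of the 15 largest called falls of wild-type Smad3 cells (black circles) beside the same genes in Smad3(RA/KP) cells (green diamonds), n = 2 per group. All 27 genes have the same sign in both lines, most falls are nearer 0 in Smad3(RA/KP) cells, and none of the 27 differences passed the test over all genes. The genes were chosen for large changes in wild-type cells, which favours larger values there.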

How the data were processed

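PolyA RNA of 8 libraries was sequenced, and the submitters' processing notes name HISAT2 2.1.0, StringTie 2.0.4 and GRCh38; the annotation and the strand setting are not given in the sources used here. Deposited tables give TPM, FPKM and coverage per gene record, as the authors' StringTie runs wrote them. Here the TPM of records with one Gene Name were added up, over 30017 symbols, and the deposited FPKM values served as an alternative. Depth was inferred as the largest ratio of deposited coverage to FPKM over gene records with an FPKM of at least 10. Without read counts, no counting intervals could be computed.

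The 13141 symbols averaging 1 TPM or more over the 8 libraries were tested on log2(TPM + 1), so folds of low genes are understated, with limma 3.58.1 (R 4.3.3) in 1 fit of 4 groups and a replicate block, using Benjamini-Hochberg adjustment and a trended prior variance (3 residual degrees of freedom, 5.90 prior). Fold changes are on this scale, ± SE. The labels do not say what a replicate is, and p-values measure only the spread between these libraries. Tables and plots used Python 3.11.15, pandas 2.3.3, numpy 2.4.6 and matplotlib 3.10.9. The fitting code was tested on simulated data.

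The members and the 44 gene lists were chosen with earlier results of these data known. Named genes were the 15 largest rises and falls with a mean of at least 5 TPM and the same direction in both replicates, the 10 most abundant called genes, up to 4 called members of each list (or the 2 with the smallest p where none was called), up to 6 genes in each direction listed at 0 in a whole group, the genes that differed between lines, up to 5 called genes whose replicates differed most, and ARHGAP22, ARHGAP24 and ARHGAP27. Some genes that the rule names are not reported here. Genes with near-identical copies, overlapping genes and antisense genes are uncertain. Alternatives were other pseudocounts, minimum levels, scalings (median-ratio, quantile), FPKM, block and trend settings, a fold minimum, and leaving out each library.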

Additional observations from a re-analysis of the deposited data

Results flagged for a closer look

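The responses of wild-type Smad3 and Smad3(RA/KP) cells differed for 3 genes by the interaction of line and treatment (limma, adjusted over 13141 genes), and all 3 had both libraries of a group listed at 0. SEPT5, a septin gene, was at 12.1 and 14.6 TPM untreated and 7.998 and 18.8 TPM treated in wild-type cells. In the mutant line it was listed at 0 in both untreated libraries and at 12.1 and 16.9 TPM in the treated ones. The wild-type groups overlapped and the wild-type response did not pass (adjusted p = 0.934), and the difference of the responses on log2(TPM + 1), wild-type minus mutant, was -4.04 (adjusted p = 0.0257).

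LOC102724049 was listed at 0 in untreated wild-type cells and at 2.67 and 3.22 TPM with TGF-β, whereas in Smad3(RA/KP) cells it was at 2.61 and 2.90 TPM untreated and listed at 0 with TGF-β (difference 3.88, adjusted p = 0.0257). CTB-178M22.2, a long noncoding RNA, was likewise listed at 0 in untreated and at 3.01 and 2.17 TPM in treated wild-type cells, and at 3.55 and 6.14 TPM in untreated and at 0 in treated mutant cells (difference 4.35, adjusted p = 0.0257). Because a 0 can be a failed estimate, these differences on the log2(TPM + 1) scale are no measure of a fold. In wild-type cells, LOC102724049 lost its call when either treated library was left out (adjusted p = 0.0831 to 0.092) and CTB-178M22.2 when any 1 of the 4 libraries was left out (0.0722 to 0.221).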

How the results depend on the processing

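No called gene changed its direction in any of the 19 settings. Of 141 called genes named by the rule, 40 kept their call in each setting that tested them, which was 18 of the 19 for CCM2L, R3HDML and LINC00313. The 387 rises and 228 falls became 207 and 80 with no minimum level, a fit of 18383 genes, and 110 falls with a replicate block within each line. Without the replicate block there were 198 rises and 79 falls, and 62 of the 141 named genes lost their call, among them VIM (adjusted p = 0.405), HMGA2 (0.39), INHBB (0.171) and ELF3 (0.19). The labels do not say that a replicate number marks a shared day, and deviations of same-numbered libraries correlated at 0.0484 to 0.332 across genes, so the pairing is an assumption. Leaving out 1 of the 8 libraries gave 91 to 561 rises, 15 to 451 falls and 0 to 8 genes that differed between the lines. The 3 genes that differed became 1 with a pseudocount of 0.1 TPM or a minimum of 5 TPM, and 0 with a pseudocount of 5 TPM, with no minimum or with a block within each line. The cause was not tested. With n = 2 and no read counts in the files, the precision of single values is unknown, and of 769 genes with a log2 fold change of at least 1 in size, 284 were not called.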

Other observations

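Some genes called in the same direction were neighbours on a chromosome. Among the tested genes ordered by position there were 37 runs of at least 2 neighbours called the same way, 26 higher and 11 lower, holding 79 genes, and 5 runs had 3 genes. COL4A1 with COL4A2, EREG with AREG and R3HDML with HNF4A were such runs. No test of this number was made, and no background number of such runs was computed. Some runs were of genes with near-identical or similar sequence, among which reads could be split. Examples are CGB with CGB2 and CGB1, CGB5 with CGB8 and CGB7, and CYP4F3 with CYP4F12. The genes below were named after their values were seen.

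The chorionic gonadotropin beta genes, a family named for a hormone subunit of the placenta, rose together. The summed level of the 6 genes CGB, CGB1, CGB2, CGB5, CGB7 and CGB8 was 13.6 and 10.99 TPM untreated and 126 and 146 TPM treated in the wild-type line, and 12.1 and 5.52 TPM untreated and 133 and 169 TPM treated in the Smad3(RA/KP) line. Treated libraries were close to each other and far above untreated ones in both lines. The copies are near-identical, so that the share of each gene in the sum is uncertain.

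Of the HOXD genes, which pattern the body axis, 3 neighbours rose. HOXD11 was at 2.93 and 2.93 TPM untreated and 15.9 and 9.84 TPM treated (adjusted p = 0.00464), HOXD10 at 1.16 and 2.47 TPM and 5.88 and 6.57 TPM (0.0359) and HOXD9 at 0.372 and 0.245 TPM and 3.62 and 1.81 TPM (0.0319). HOXD8, the next gene of the cluster, did not pass, at 2.05 and 2.29 TPM and 2.58 and 4.72 TPM (adjusted p = 0.44). The calls of HOXD9 and HOXD10 were lost when any 1 of the 4 wild-type libraries was left out (adjusted p = 0.0574 to 0.39), and the range for HOXD11 was 0.0298 to 0.121.

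The metallothionein gene MT1X rose alongside MT2A, from 129.5 and 97.1 TPM untreated to 297 and 209 TPM treated (adjusted p = 0.00292; 0.0373 to 0.0645 when 1 wild-type library was left out). KRT16, an injury-associated keratin, was at 4.99 and 2.05 TPM untreated and 12.4 and 6.57 TPM treated (adjusted p = 0.0263; 0.147 to 0.328). Among noncoding RNAs, MEG3 was at 59.6 and 92.2 TPM untreated and 136 and 175 TPM treated (adjusted p = 0.00751; 0.0408 to 0.149) and LINC00623 at 5.38 and 5.64 TPM and 15.9 and 19.9 TPM (0.00599; 0.0421 to 0.123). LINC00473 fell from 21.8 and 13.8 TPM to 5.84 and 5.36 TPM (0.00852; 0.0445 to 0.165). HOXD9, HOXD10, MT1X, KRT16, MEG3 and LINC00473 were not called without the replicate block (adjusted p = 0.0575 to 0.443).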
